A study of Mus musculus with 6 samples.

Results

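The genes examined were 43 interferon-induced and interferon signalling genes of the mouse, chosen by name. Each was represented by the probe set with the highest mean signal over all arrays among those that carry its symbol alone. Of the 43 genes, 41 had such a probe set, out of 18193 genes with one on the array; Isg15 and Ifi44 had none and are not analysed here. By the roles assigned to them, the 41 comprised 6 GTPases induced by interferon-gamma, 16 effectors of the type I interferon response, 8 sensors, ubiquitin ligases and PARPs, 2 feedback genes, 4 transcription factors, 1 chemokine and 4 receptor subunits. RNA was taken from LSK cells, the sorted fraction of lineage-depleted bone marrow that carries Sca-1 and c-Kit and holds stem cells and multipotent progenitors. There were 3 Ercc1-deficient samples, genotype -/d, with a knockout allele over a truncated one, and 3 Ercc1-proficient samples, of which those numbered 1 and 2 were +/+ and that numbered 3 was +/d. All mice were F1 offspring of C57BL/6 and FVB/n, and samples of equal number were litter mates, aged 22 weeks in litter 1 and 20 weeks in litters 2 and 3. Every cell of a deficient mouse carried the mutant alleles, so the marrow environment of the LSK cells was deficient too. Whether a sample was taken from 1 mouse or pooled from several is not stated in the labels. After 2 rounds of linear amplification, each RNA was measured on 1 Affymetrix Mouse Genome 430 2.0 array.

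Interferons signal through receptor pairs, Ifnar1 with Ifnar2 for type I interferons and Ifngr1 with Ifngr2 for interferon-gamma. Type I interferons act on their targets mainly through the interferon-stimulated response element (ISRE), which a complex that includes Stat2 and Irf9 binds, and interferon-gamma acts through the gamma-activated site (GAS). The targets include antiviral effectors such as the Ifit, Mx and Oas families, and immunity-related and guanylate-binding GTPases, which act on vacuoles that hold intracellular pathogens. In blood stem cells interferons are known to drive entry into the cell cycle, and many interferon-induced genes are expressed at a basal level without infection.

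Promoter sequences show which of these elements lie beside the genes. RefSeq windows on GRCm38.p6, with 250 bases before and 50 after an annotated start, matched 34 of the 43 genes with 41 windows. An ISRE-type match was GAAA, then any 2 bases, then GAAA again, and a GAS-type match was TTCNNNGAA, where N is any base; both strands were searched and matches could overlap. An ISRE-type match lay in 19 of the 41 windows (46.3%), against 3.44% of all 32851 windows. A GAS-type match lay in 11 of the 41 windows (26.8%), against 8.30% of all windows. All 5 GTPase genes with a window had an ISRE-type match, as did 7 of 15 effectors and none of the 4 receptors. A GAS-type match lay in 2 of 5 GTPase genes, 6 of 15 effectors and 2 of 4 receptors. The GTPase promoters are shown because this group had the lowest median difference, with those of Ifit1 and Rsad2 beside them as type I effectors. Each line gives the 150 bases before the start on the gene's own strand, 5′ to 3′, with ISRE-type and GAS-type matches in capitals; in the reverse orientation an ISRE-type match reads TTTC, any 2 bases, TTTC.
Igtp, chr11:58199406-58199555, plus strand: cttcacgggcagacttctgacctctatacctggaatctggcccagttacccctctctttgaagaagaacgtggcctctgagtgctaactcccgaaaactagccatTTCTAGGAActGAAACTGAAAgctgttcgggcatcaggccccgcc
Irgm2, chr11:58214827-58214976, plus strand: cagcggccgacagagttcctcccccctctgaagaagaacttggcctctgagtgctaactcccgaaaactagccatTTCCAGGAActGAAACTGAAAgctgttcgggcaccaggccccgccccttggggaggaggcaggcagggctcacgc
Irgm1, chr11:48871421-48871570, minus strand: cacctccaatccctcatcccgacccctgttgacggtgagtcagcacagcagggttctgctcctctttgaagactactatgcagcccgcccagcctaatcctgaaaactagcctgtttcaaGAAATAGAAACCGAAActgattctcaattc
Gbp2, chr3:142620513-142620662, plus strand: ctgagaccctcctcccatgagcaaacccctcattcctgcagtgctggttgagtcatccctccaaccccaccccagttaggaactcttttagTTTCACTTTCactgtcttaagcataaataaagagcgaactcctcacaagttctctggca
Gbp3, chr3:142559894-142560043, plus strand: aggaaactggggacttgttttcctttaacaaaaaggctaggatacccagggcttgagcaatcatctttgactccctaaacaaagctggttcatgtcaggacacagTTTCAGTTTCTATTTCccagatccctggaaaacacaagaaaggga
Ifit1, chr19:34640739-34640888, plus strand: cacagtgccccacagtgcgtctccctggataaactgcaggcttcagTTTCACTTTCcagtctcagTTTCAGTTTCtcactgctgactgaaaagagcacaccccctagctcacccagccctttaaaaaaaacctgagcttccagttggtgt
Rsad2, chr12:26456453-26456602, minus strand: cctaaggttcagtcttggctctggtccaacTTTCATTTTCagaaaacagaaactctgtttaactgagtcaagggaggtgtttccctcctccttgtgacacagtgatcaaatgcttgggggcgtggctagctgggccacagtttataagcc
Igtp and Irgm2 had the same arrangement, a GAS-type match whose first base lay 45 bases (Igtp) and 75 bases (Irgm2) before the start, followed by an ISRE-type match. In Bst2 and Ifitm3 a GAS-type match overlapped the start of an ISRE-type match that followed it. The windows of Igtp and Irgm2 shared an identical run of 61 bases and were identical at 184 of 270 bases when set side by side without gaps. Irgm1 shared no identical run longer than 11 bases with either. In Irgm1 and Gbp3 a pair of ISRE-type matches overlapped, so that each pair appears as 1 run of capitals, and Ifit1 had 2 separate ISRE-type matches, 104 and 85 bases before its start. A match describes letters in the window, not a bound site.

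**Figure D1:**
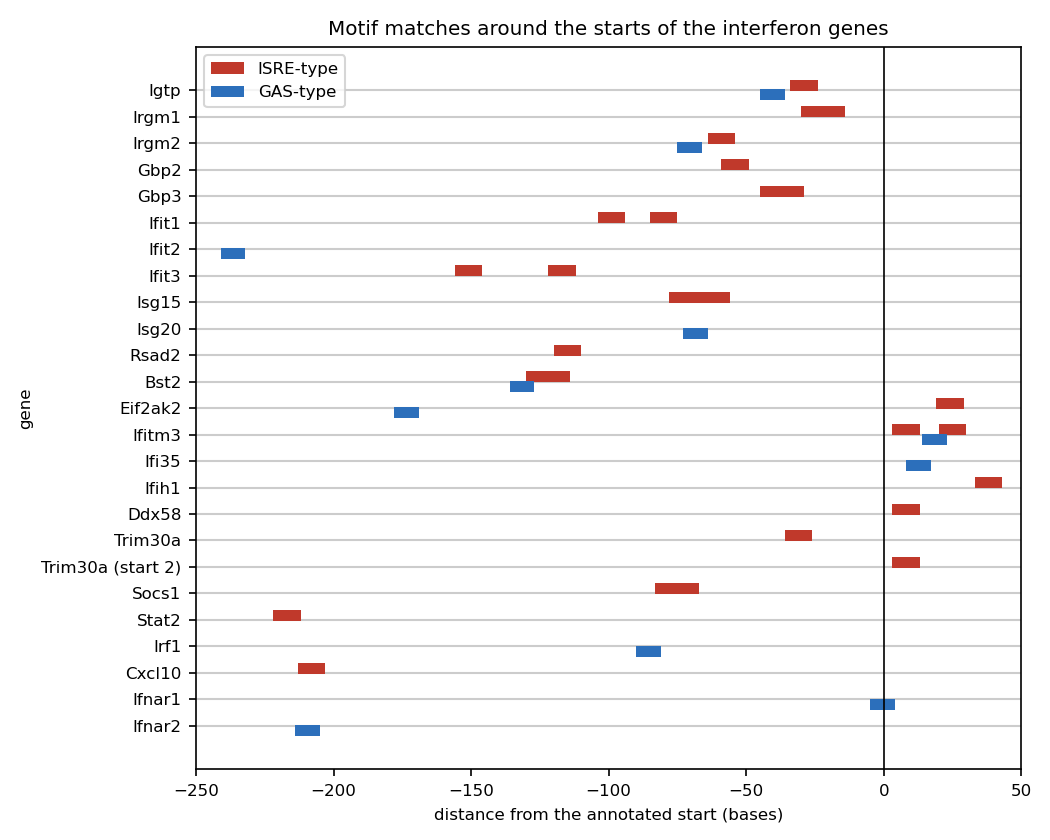
Positions of ISRE-type (red) and GAS-type (blue) matches in the windows of the interferon genes that had one, by distance in bases from the annotated start (vertical line). In Igtp and Irgm2 a GAS-type match lies just before an ISRE-type match, and the matches of the 5 GTPase genes lie within 75 bases before the start.

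The arrays held 45037 probe sets that were not controls, of which 22519 with a mean signal of at least 32.6 were tested. No signal was below 30, which acts as a floor, and between 52.3% and 58.6% of the signals of an array lay at it. Differences are given as log2(signal + 30) of deficient minus proficient cells, with litter as a block, and a call is an adjusted p under 0.05 in limma over all tested probe sets. By this rule 188 probe sets were called (0.835%), 71 higher (0.315%) and 117 lower in deficient cells; with each array centred on its median it was 193 higher and 139 lower. Without a litter term 0 were called, and 579 had an unadjusted p under 0.05 in limma. Ercc1 itself fell: its brightest probe set had signals of 79.9, 34.5 and 44.9 in the deficient samples of litters 1, 2 and 3, against 128, 244 and 176 in proficient samples (adjusted p = 0.0138 in limma). The LSK markers Kit and Cd34 were above the floor on every array, and Ly6a, the gene of Sca-1, had no probe set of its own.

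Most of the interferon genes that could be tested had lower signals in Ercc1-deficient LSK cells, and the interferon-gamma GTPases had the lowest median difference of the role groups. Of the 41 genes 35 could be tested, and 4 of them fell: Iigp1, Igtp, Xaf1 and Ifitm1. None of the 35 rose (background 0.514%). Those 4 made up 11.4% of the 35, where 0.52% of all tested probe sets and 0.597% of genes represented by their brightest probe set fell. The log2 difference was below 0 for 30 of the 35 genes (85.7%, background 53.2%), with a median of -0.40, against a median of -0.02 over all 10885 genes tested in this way. Across litters, 21 of the 35 (60.0%) were lower in the deficient sample of all 3, against a background of 17.9%, and 2 were higher in all 3, against 12.6%. The signals of 9 genes did not overlap between groups, with deficient cells lower (25.7%, background 5.23%), and those of 1 gene, Usp18, did not overlap with deficient cells higher (background 2.41%). An unadjusted p under 0.05 was reached by 15 lower genes (background 7.42%) and by 1 higher gene, Eif2ak2 (background 4.69%). These counts describe a list that was put together with results of these arrays known.

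Several settings gave no call anywhere on the array, so that their count of 0 says nothing particular about the interferon genes. Without a litter term 0 of the 35 genes and 0 of all 22519 probe sets passed (limma, adjusted p = 0.9998 for each of the 4), and 7 had an unadjusted p under 0.05 (20.0%, background 2.57%). Without a filter 0 of all 45037 probe sets passed. With any 1 litter left out, 0 of all 22519 probe sets passed, and the difference of Xaf1, for example, was -1.29, -1.38 and -1.08 without litters 1, 2 and 3. When the probe sets of a gene were averaged, 14 of 9097 genes passed and none was an interferon gene of the list. The median of the 35 genes became -0.39, -0.28 and -0.44 on leaving out litters 1, 2 and 3 in turn. Within litters 1, 2 and 3 the median was -0.27, -0.65 and -0.27. The proficient sample of litter 2 had the highest proficient signal for 24 of the 35 genes. The share over all tested genes was not computed. This array also had the fewest signals at the floor, 52.3%, against 54.7% and 57.7% in the proficient samples of litters 1 and 3.

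**Figure D2:**
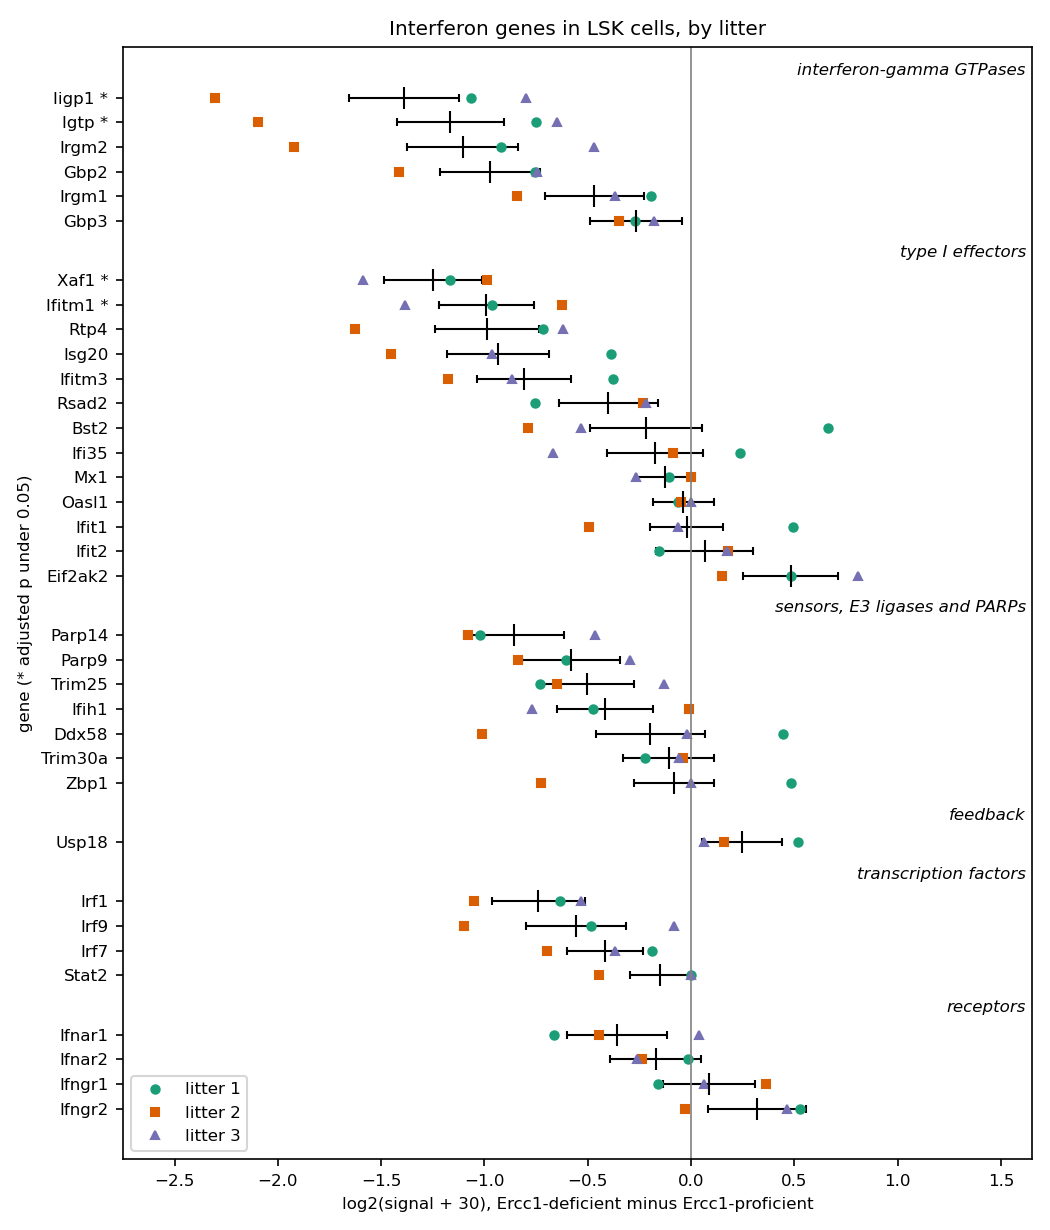
Difference in log2(signal + 30), Ercc1-deficient minus Ercc1-proficient, for the 35 interferon genes tested, by role. Coloured points are the 3 litters, and asterisks mark an adjusted p under 0.05. The black mark with its bar is the fitted difference ± 1 moderated standard error, which draws on the variance of all tested probe sets. All 6 GTPases lie left of 0 in all 3 litters (background 17.9%), while the 4 receptor subunits scatter around 0.

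The 6 GTPases induced by interferon-gamma were lower in the deficient sample of every litter (background 17.9%). Iigp1, an immunity-related GTPase of the effector kind, had signals of 140, 90.9 and 73.2 in the deficient samples of litters 1, 2 and 3, against 326, 567 and 150 in proficient samples. All 3 deficient signals lay below all 3 proficient ones, and the log2 difference was -1.39 ± 0.27 (limma, adjusted p = 0.0103). Throughout, ± gives the moderated standard error of limma, which draws on the variance of all tested probe sets. It does not show the spread between litters of the single gene, and the litter differences of Iigp1 were -1.07, -2.30 and -0.80. A dimmer Iigp1 probe set had a difference of -0.96 and did not pass (limma, adjusted p = 0.0730). Igtp, a regulatory member of the same family also named Irgm3, had signals of 186, 166 and 234 in deficient samples, against 334, 807 and 384 in proficient samples. The groups were again apart, with a log2 difference of -1.16 ± 0.26 (limma, adjusted p = 0.0310). Irgm2, another regulatory member, had signals of 61.9, 61.4 and 85.3 in deficient samples, against 144, 317 and 130 in proficient samples. Its groups did not overlap, and its difference of -1.10 ± 0.27 missed the threshold (limma, adjusted p = 0.0527).

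Among the guanylate-binding proteins, Gbp2 had signals of 94.9, 111 and 74.6 in deficient samples, against 181, 346 and 145 in proficient samples. Every deficient signal was the lower, and the log2 difference was -0.97 ± 0.24 (limma, adjusted p = 0.0601). The name of this probe set ends in x_at, which marks possible cross-hybridisation in this array design. A dimmer probe set of Gbp2 without that mark had signals of 107, 58.2 and 56.7 in deficient samples, against 192, 277 and 151 in proficient samples, and it fell by 1.19 on the log2 scale (limma, adjusted p = 0.0220). Gbp3, a paralogue beside Gbp2, had signals of 125, 208 and 252 in deficient samples, against 158, 272 and 290 in proficient samples. Its groups overlapped, and its difference of -0.27 ± 0.22 did not pass (limma, adjusted p = 0.699). The litter differences of Gbp3 were -0.27, -0.35 and -0.18. Irgm1, which regulates the family and is required for stem cell maintenance in mice, had signals of 84.6, 66.2 and 76.9 in deficient samples, against 101, 142 and 108 in proficient samples. These did not overlap, but the difference of -0.47 ± 0.24 did not pass (limma, adjusted p = 0.475).

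For each of the 6 GTPases litter 2 had the lowest of the 3 litter differences. It was -2.30 for Iigp1, -2.09 for Igtp, -1.92 for Irgm2 and -1.42 for Gbp2 in that litter. The proficient sample of that litter had the highest proficient signal for 5 of the 6 GTPases, a count without a share over all tested genes. Without litter 2 the difference was -0.93 for Iigp1 and -0.70 for Igtp, in a fit in which no probe set of the array passed. Other members of these GTPase families, listed among the other pathway genes, were less uniform. Ifi47, an immunity-related GTPase, had signals of 919, 882 and 583 in deficient samples, against 586, 1251 and 596 in proficient samples, with overlapping groups and a difference of 0.03 ± 0.24. Gbp7 had litter differences of -1.05, 0.00 and -0.25 and a difference of -0.43 ± 0.24 (limma, adjusted p = 0.517). Gbp6 and Gbp8 were at the floor on all 3 deficient arrays and on 1 proficient array each.

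**Figure D3:**
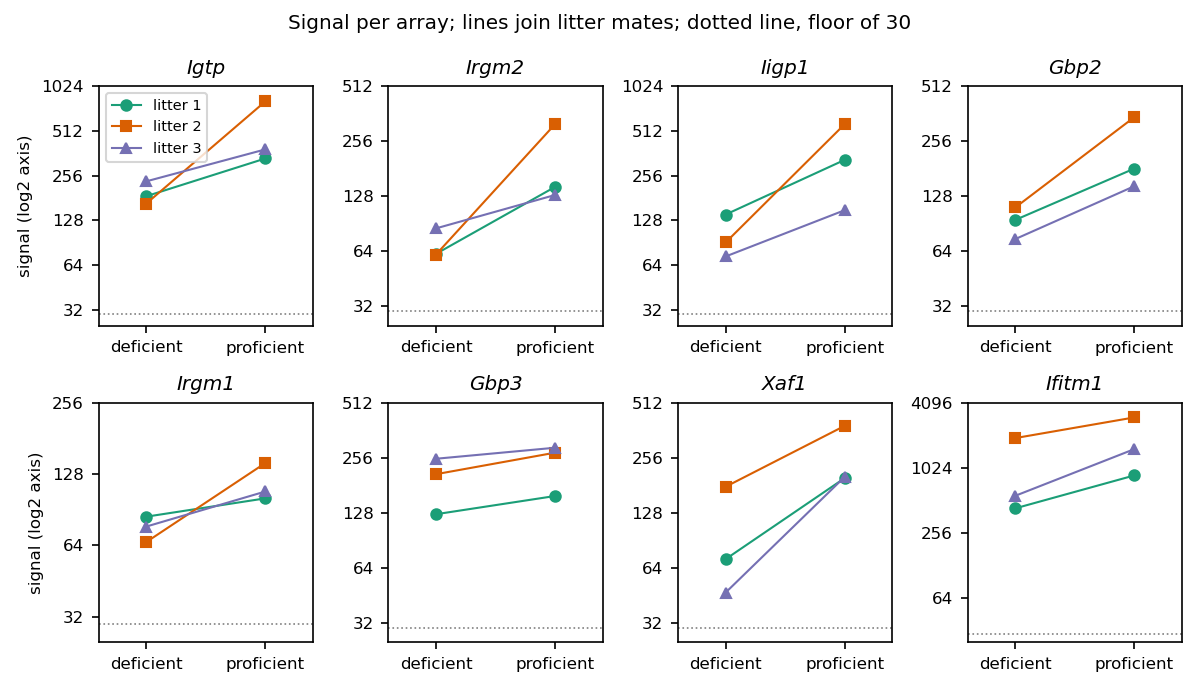
Signal of each array on a log2 axis for the 6 GTPases and for Xaf1 and Ifitm1, with Ercc1-deficient samples left and Ercc1-proficient samples right; each line joins the litter mates of 1 litter and the dotted line is the floor of 30. Every deficient sample lies below its litter mate, and for 5 GTPases the proficient sample of litter 2 is the highest proficient array.

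Of the 16 type I effectors with a probe set, 13 were tested and 2 fell, Xaf1 and Ifitm1 (15.4%, background 0.597%). Xaf1, a proapoptotic partner of the inhibitor of apoptosis XIAP, had signals of 71.3, 177 and 46.8 in the deficient samples of litters 1, 2 and 3, against 198, 382 and 201 in proficient samples. The groups did not overlap, and the log2 difference was -1.25 ± 0.24 (limma, adjusted p = 0.00966). Its litter differences were -1.17, -0.99 and -1.59, and a second Xaf1 probe set was at or near the floor on all arrays. Ifitm1, a membrane protein that restricts virus entry, had signals of 432, 1923 and 564 in deficient samples, against 870, 2983 and 1521 in proficient samples. The groups overlapped, with both samples of litter 2 high, while within each litter the deficient sample was the lower, with a difference of -0.99 ± 0.23 (limma, adjusted p = 0.0396). Rtp4, a chaperone of receptor transport induced by interferon, had signals of 55.9, 64.8 and 62.7 in deficient samples, against 111, 263 and 113 in proficient samples. The deficient samples lay close together and below all proficient ones, and the difference of -0.99 ± 0.25 did not pass (limma, adjusted p = 0.0727).

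The other effectors were divided. Ifitm3, which blocks fusion of viruses in endosomes, and Isg20, an exonuclease that degrades single-stranded RNA, had differences of -0.81 and -0.93, lower in all 3 litters, with overlapping groups. Rsad2, known as viperin, had signals of 115, 123 and 83.6 in deficient samples, against 215, 150 and 102 in proficient samples, a difference of -0.40 that was below 0 in all 3 litters. A dimmer Rsad2 probe set had a difference of -0.17, with litter 3 in the opposite direction at 0.31. Eif2ak2, which encodes the double-stranded RNA kinase PKR, had a difference of 0.48 ± 0.23 and was higher in all 3 litters (limma, adjusted p = 0.434), but its dimmer probe sets had differences of -0.51 and -0.06. Bst2, the virion tether tetherin, and Ifi35 differed in sign between litters by their brightest probe sets. The litter differences were 0.66, -0.79 and -0.53 for Bst2 and 0.24, -0.09 and -0.67 for Ifi35. By dimmer probe sets Ifi35 had differences of -0.49, lower in all 3 litters, and -0.05, with litter 3 higher. Several members of the type I response gave little signal in either genotype. Ifit1 and Mx1 had highest signals of 55.2 and 31.7 among deficient arrays, against 54.5 and 42.1 among proficient arrays, and Oasl1 was at the floor on 2 deficient arrays and 1 proficient array. Ifit3, Oasl2 and Mx2 did not reach the filter, with no signal above 34.9 on any array. Ifit2, a tetratricopeptide protein that restricts translation of viral RNA, was well above the floor on all arrays, at 128 to 140 in deficient and 110 to 151 in proficient samples, and its difference was 0.07 ± 0.24.

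Set side by side, the GTPases had a median log2 difference of -1.04 and the tested type I effectors one of -0.22, so that the GTPase median was lower by 0.82. The gap between these medians was -0.60 in litter 1, -1.18 in litter 2 and -0.03 in litter 3, where the GTPase median of -0.56 and the effector median of -0.53 were nearly equal. It was -0.48 without litter 2. Among the effectors, those with a mean signal at or above the 75th percentile had a median of -0.60, which narrowed the gap to -0.43. The GTPase median covers only the listed GTPases, which were chosen with earlier results of these data known. Ifi47, Gbp7, Gbp6 and Gbp8, of the same families, are not in it. Their differences were 0.03, -0.43, -0.47 and -0.33, less far below 0 than that median. Since several effectors lay near the floor in both genotypes, where a difference cannot show, the 2 medians rest on genes with unequal room to differ. In these bulk samples, fewer cells that express a gene and less RNA per cell cannot be told apart.

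**Figure D4:**
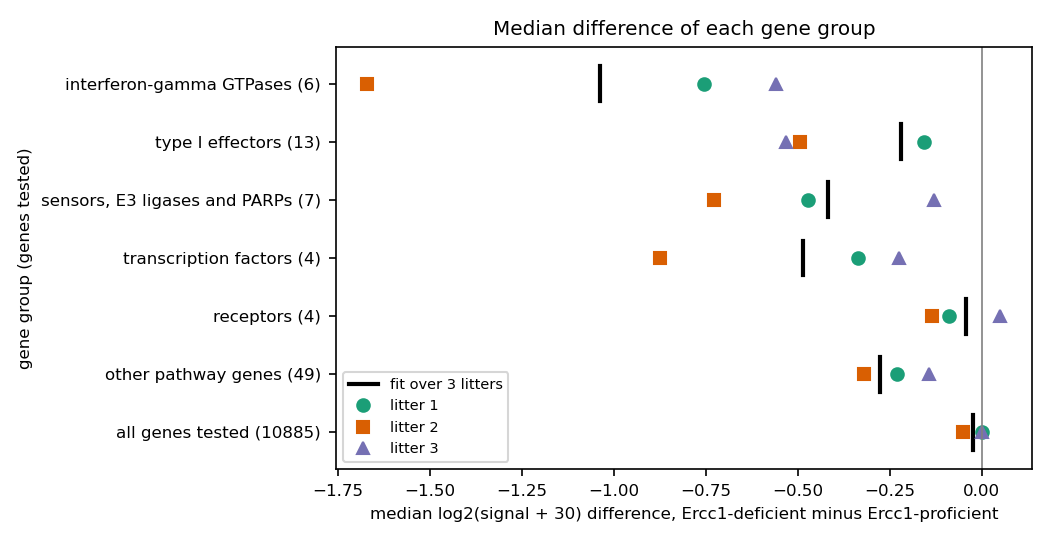
Median difference in log2(signal + 30), Ercc1-deficient minus Ercc1-proficient, for each gene group with at least 4 tested genes, the other pathway genes and all genes tested. Points are the medians within litters 1, 2 and 3 and the black bar is the median of the fitted differences; the GTPase median lies lowest in litters 1 and 2, and next to the effector median in litter 3.

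Of the 8 sensors, ubiquitin ligases and PARPs 7 were tested. All 7 had a difference below 0 (background 53.2%), with a median of -0.42. In limma 0 passed, and 3 had an unadjusted p under 0.05 (background for lower genes 7.42%). Parp14, an ADP-ribosyltransferase, had signals of 84.2, 78.9 and 62.3 in deficient samples, against 202, 200 and 97.6 in proficient samples. No deficient sample reached the lowest proficient one, and the difference was -0.86 ± 0.24 (limma, adjusted p = 0.116). Parp9, which acts in a complex with the ubiquitin ligase Dtx3l, had a difference of -0.58, and Trim25, the ligase that activates RIG-I, one of -0.50, both lower in all 3 litters. By a dimmer Trim25 probe set the groups did not overlap, with a difference of -0.74 (limma, adjusted p = 0.168). The RNA sensor Ifih1, or MDA5, had -0.42, and Ddx58, which encodes RIG-I, had -0.20 with litter 1 in the opposite direction at 0.44. A dimmer Ddx58 probe set, at the floor on 1 deficient array, was lower in all 3 litters, with a difference of -0.43. Trim30a gave different answers by probe set, at -0.11 for the brightest and -0.90 for the dimmer one (limma, adjusted p = 0.0976), and the groups did not overlap by the dimmer one. Zbp1, a sensor of Z-form nucleic acids, was at the floor on 1 deficient and 2 proficient arrays, and Dhx58 did not reach the filter.

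The 4 transcription factors all had differences below 0 (background 53.2%), with a median of -0.49. In limma 0 passed, and 3 had an unadjusted p under 0.05 (background for lower genes 7.42%). Irf1, a direct target of interferon-gamma signalling, had signals of 200, 294 and 272 in the deficient samples of litters 1, 2 and 3, against 327, 641 and 406 in proficient samples. The deficient samples were below all proficient ones, with a difference of -0.74 ± 0.22 (limma, adjusted p = 0.151). Irf9, the DNA-binding part of the type I complex, had a difference of -0.56, and Irf7, which amplifies type I interferon production, one of -0.42; both were lower in all 3 litters. Stat2 was at or within 0.1 of the floor on all deficient arrays and above it on 1 proficient array, at 51.8 in litter 2.

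Of the 2 feedback genes 1 was tested. This gene, Usp18, which removes Isg15 from proteins and dampens the type I receptor, had signals of 55.9, 63.1 and 56.6 in deficient samples, against 30, 53.3 and 53.0 in proficient samples. The groups did not overlap, with deficient samples higher, but litters 2 and 3 differed by little and the difference of 0.25 ± 0.19 did not pass (limma, adjusted p = 0.673). Socs1, an inhibitor of JAK kinases, was at the floor on all 6 arrays. Cxcl10, a chemokine induced by interferon-gamma, had no signal above 30.8.

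The receptor subunits showed no change that passed. Ifnar1 had signals of 112, 55.9 and 160 in the deficient samples of litters 1, 2 and 3, against 195, 87.1 and 154 in proficient samples, with overlapping groups and a difference of -0.36 ± 0.24. A dimmer Ifnar1 probe set separated the groups, at 45.0, 51.3 and 34.8 in deficient samples, against 96.3, 88.9 and 87.6 in proficient samples (difference -0.72; limma, adjusted p = 0.137). Ifnar2 had signals of 320, 456 and 336 in deficient samples, against 324, 544 and 409 in proficient samples. Its difference was -0.17 ± 0.22, on a probe set whose name also carries the mark of possible cross-hybridisation. For the interferon-gamma receptor, Ifngr1 had signals of 250, 765 and 642 in deficient samples, against 283, 587 and 614 in proficient samples, a difference of 0.09 ± 0.22. Ifngr2 had signals of 170, 143 and 145 in deficient samples, against 109, 147 and 97.1 in proficient samples, a difference of 0.32 ± 0.24. All 4 subunits thus overlapped between genotypes by their brightest probe sets, and their median difference was -0.04.

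Among 64 other genes of the pathway, 49 could be tested and 1 fell (2.04%, background 0.597%). This was Uba7, the enzyme that activates Isg15 for attachment to proteins, with signals of 123, 210 and 75.5 in deficient samples, against 203, 538 and 222 in proficient samples (log2 difference -1.03 ± 0.23; limma, adjusted p = 0.0339). Its groups overlapped, while the deficient sample was lower in all 3 litters; it did not pass without a litter term or with any 1 litter left out, where no probe set did. The median of the 49 genes was -0.27, with 37 below 0 (75.5%, background 53.2%) and 22 lower in all 3 litters (44.9%, background 17.9%). The kinases of the receptors had differences of -0.08 for Jak1, -0.11 for Jak2 and -0.30 for Tyk2. Ifng and Ifnb1, which encode interferon-gamma and interferon-beta, were at the floor on all 6 arrays. The signals of 8 of these genes lay lower in deficient cells without overlap (16.3%, background 5.23%), namely Tyk2, Irf2, Mavs, Ikbke, Oas1a, Trafd1, Trim21 and Il10rb. Oas1a, of the family of oligoadenylate synthetases, had signals of 88.2, 117 and 129 in deficient samples, against 191, 235 and 226 in proficient samples, and its difference of -0.81 ± 0.23 did not pass (limma, adjusted p = 0.119). The signals of 1 gene, the chemokine gene Cxcl9, lay higher without overlap (background 2.41%). They were 48.9, 90.4 and 46.9 in deficient samples, against 30, 30 and 30.5 in proficient samples. Cxcl9 was higher in all 3 litters, the opposite direction to the listed GTPases. Its difference of 0.58 ± 0.18 did not pass (limma, adjusted p = 0.161).

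Some markers of granulocytes and of LSK cells moved with genotype. Of 8 granulocyte markers 6 were higher in the deficient sample of all 3 litters (background 12.6%). Camp, Ngp, S100a8 and S100a9 rose (4 of 7 tested, background 0.514%). Summed signals lay between 5621 and 81303 in deficient samples, against 497 and 18271 in proficient samples, and Mmp8 was at the floor throughout. Of 6 measured LSK markers 2 fell, Flt3 and Procr (background 0.597%), and 4 were lower in the deficient sample of all 3 litters (background 17.9%). Gata2 went the other way without overlap, at 644, 529 and 761 in deficient samples, against 499, 433 and 399 in proficient samples. It did not pass (limma, adjusted p = 0.389). Slamf1 had a difference of 0.36 with overlapping groups. Summed signals of the 6 were 1538 to 2547 in deficient samples, against 2216 to 2906 in proficient samples. Markers of T and NK cells summed to 928 to 1566 in deficient samples, against 462 to 969 in proficient samples. Most of this sum was Nkg7, at 594 to 1211 in deficient samples, against 252 to 721 in proficient samples. Of 5 tested 0 passed, and Cd3g, Gzma and Ncr1 were at the floor on all arrays. Markers of plasmacytoid dendritic cells summed to 1841 to 3878 in deficient samples, against 2126 to 3515 in proficient samples. Most of this sum was the single gene Tcf4, at 1286 to 3652 in deficient samples, against 1712 to 3220 in proficient samples. Siglech and Spib were at the floor on all arrays, so the sum says little about these cells. Of the monocyte and macrophage, B cell and erythroid markers none of those tested passed, and C1qa, Cd79a, Hba-a1 and Alas2 were at the floor on all arrays. The mean log2 signal of the hybridisation controls was higher in the deficient sample of each litter, by 1.13, 0.10 and 0.18. The 3′ to 5′ difference of Actb was 0.92 higher, 0.16 lower and 0.41 lower in litters 1, 2 and 3. For Gapdh these shifts were 1.07, -0.55 and -0.43. Over the arrays the 3′ to 5′ log2 difference ran from 3.30 to 4.97 for Actb and from 2.30 to 4.71 for Gapdh. Both were highest in the deficient sample of litter 1. The part of these shifts in the interferon results was not tested.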

How the data were processed

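Per the submitters' processing notes, MAS5 produced the deposited signal intensity values, on a linear scale; the sources used here give neither its version nor the scaling target or the step behind the floor of 30. Control probe sets (64) were left out, and of the rest those whose mean signal reached the median were kept. Values were transformed as log2(signal + 30), which understates the change of weak genes, and fitted with limma 3.58.1 in R 4.3.3 (lmFit, eBayes with a variance trend), with genotype and litter as terms and Benjamini-Hochberg adjustment at 0.05 over all 22519 probe sets. The fit was also run on simulated data, with independent normal noise of its own variances and no floor. Such data cannot show how the fit behaves near the floor, and no conclusion is drawn from them. The labels name samples of equal number as litter mates; their deviations from group means correlated at 0.77, 0.67 and 0.46. Precision is limited by the number of arrays, 3 per group, and the p-values reflect only spread among these samples, which may be technical. Names came from the platform annotation of 2016, where 34945 probe sets had 1 symbol, 932 several and 9160 none. The 43 genes, their roles, the 64 other pathway genes, the markers and the promoters shown were chosen with earlier results of these data known. Of the 43 genes, values per array are given for all GTPases and receptors and for those that passed or whose groups did not overlap. Of the other pathway genes, those named besides Uba7, Jak1, Jak2 and Tyk2 were chosen after their values were seen. Alternatives covered the litter term, normalization, pseudocount, filter, variance model, probe sets per gene and each litter left out. No 2 arrays held identical values.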

Additional observations from a re-analysis of the deposited data

How the results depend on the processing

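The count of 4 interferon genes called was 0 with no replicate block, 0 without a filter, 0 with the mean over the probe sets of a gene, 1 with no variance trend (Xaf1), 7 with median centring and 8 with the stricter filter, which tested fewer probe sets; quantile normalization, a pseudocount of 100 and no pseudocount gave 3, 3 and 6. It was 0 with each litter left out. No probe set of the array passed in those fits, with no replicate block or without a filter. Over the whole array, median centring called 332 of 22519 probe sets and the stricter filter 216 of 11260, against 188 of 22519 in the main fit. Quantile normalization, a pseudocount of 100, no pseudocount and no variance trend called 130, 154, 215 and 114. Xaf1, Iigp1, Igtp and Ifitm1 kept a difference below 0 under all 12 alternatives, and Irgm2, Gbp2 and Rtp4 passed with median centring and with the stricter filter. The other pathway count of 1 was 0 with no replicate block, quantile normalization, no filter, no variance trend, the mean over probe sets and with each litter left out. It was 2 with median centring, Uba7 and Cxcl9. Cxcl9 was the higher in deficient cells, with a difference of 0.58 in the main fit. The effector median was -0.60 with the stricter filter; the medians of all members and of the GTPases, and the gap between GTPases and effectors, moved by less than the spread between litters under each alternative, and the medians of the other groups were not recomputed. Of 35 genes 27 never turned direction. With median centring Ifit1 turned to 0.069, Oasl1 to 0.052 and Zbp1 to 0.0086, and with the mean over probe sets Eif2ak2 turned to -0.031. With litters left out in turn the values ran from -0.28 to 0.22 for Ifit1, -0.66 to 0.066 for Bst2, -0.38 to 0.073 for Ifi35, -0.52 to 0.21 for Ddx58, -0.36 to 0.24 for Zbp1 and -0.050 to 0.21 for Ifngr1, and Stat2 was 0 without litter 2. The causes were not tested. Signals at the floor limit what can be seen for the 6 genes below the filter.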
